A study of Rattus norvegicus with 9 samples.

Results

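The genes described here are those whose deposited values rose and fell from rat to rat together with Ogn, which encodes osteoglycin, a small leucine-rich proteoglycan of the membranes around the brain. A probe set was taken when it carried 1 gene symbol, ranged over more than 0.05 log2 units across the 9 rats, and had a Pearson r of 0.85 or more with Ogn. Ogn itself, Dcn, Lum, Fmod, Bgn, Ptgds, Vip, Cd74 and symbols that start with Col, Slc, Igf or RT1- were left out by name. This gave 132 probe sets of 124 genes. In all the arrays hold 31042 probe sets and 14217 named genes, and 936 probe sets carried 1 symbol and ranged over more than that limit, which is called variable here. Of the 168 probe sets at or above the limit, 36 were left out by name. The genes were chosen by the measured values themselves, over all 9 rats, so their r with Ogn is given as a description, with no test.

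The arrays hold hypothalamus from male rats aged 13 weeks, 1 rat per array, with 4 rats on a noodle diet (rats 1, 4, 7 and 13) and 5 on a control diet (rats 2, 5, 8, 11 and 14). Per the series description both diets had medium fat and instant noodles, and the seasonings were included only in the noodle diet. The labels give both groups 30 wt.% noodle, 26% of energy from fat, intake matched at about 60 g per kg body weight and day, and a feeding time of 30 days in 1 place and 4 weeks in another. The sources used here do not give the strain or the hour of dissection, and no allele, transgene or pooling of animals is named.

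Osteoglycin, together with collagens and retinaldehyde dehydrogenase, is a textbook product of meningeal fibroblasts, the cells that build the pia and arachnoid on the surface of the brain. These cells make retinoic acid from retinol and secrete bone morphogenetic proteins, Wnt modulators, the chemokine Cxcl12 and a collagen-rich matrix. The arachnoid barrier cells beneath the dura are joined by cadherin, claudin and connexin junctions. The hypothalamus lies at the base of the brain and carries such membranes on its ventral face.

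Values are read as log2 from their range, since no label states the scale. For 95.9% of the 31042 probe sets the 9 rats lie within 0.01 log2 units, so the deposited scale may have been altered before deposit, and how is not given here. Every range, slope, fold and difference below therefore holds on the deposited scale and may not equal that of the transcript. Values of single rats are given in the order 1, 4, 7 and 13 for the noodle diet and 2, 5, 8, 11 and 14 for the control diet. Ogn stood at 7.70, 5.96, 5.81 and 6.76 on the noodle diet and 6.97, 6.90, 7.43, 5.80 and 5.55 on the control diet. Noodle rat 1 and control rat 8 were highest, control rats 14 and 11 and noodle rats 7 and 4 were lowest, and the diets overlapped over nearly the whole range. Ogn's mean was 6.56 ± 0.87 (SD, n = 4) against 6.53 ± 0.81 (SD, n = 5). The other Ogn probe sets followed the first at r 0.992, 0.992 and 0.987. Summed over meningeal fibroblast markers, 12 of 14 measured genes were variable, and their mean deviation, which includes Ogn itself and genes chosen by the rule, had r 0.995 with Ogn. That score ran from -0.36 to 0.57 on the noodle diet and from -0.46 to 0.44 on the control diet. Of these 12 markers, Aldh1a2, Islr and Pdgfra are among the 124 genes, 8 met the limit but were left out by name or are Ogn itself, and Dcn did not meet it (r 0.792). These are defining markers of the cell type, and the rule names some of them itself. In tissue RNA of this kind, fewer cells of a type and less RNA per cell cannot be told apart.

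The 132 probe sets shared their ordering of the rats in broad outline. All 132 lay above their own mean in noodle rat 1 and in control rat 8. In noodle rat 7 and control rat 14 the number above the mean was 0, in control rat 11 it was 1 and in noodle rat 4 it was 7. The mean deviation was 0.36 in noodle rat 1, 0.28 in control rat 8, 0.19 in control rat 2 and 0.15 in control rat 5, against -0.17, -0.24, -0.26 and -0.29 in noodle rats 4 and 7 and control rats 11 and 14. Noodle rat 13 lay at the middle, with 57 probe sets above their mean. Noodle rat 1 held the highest value of 87 probe sets and control rat 8 that of 36. Control rat 2 was highest for 8 probe sets (Bmp7, Emp3, Gjb6, Plac8, Scara3, Serpinf1, Thbd and Tnnt2) and below the mean for 20 others (among them Id3, Hopx, Ndrg1 and Txnip), and control rat 5 was highest for Cxcl16. In 99 of the 132 probe sets, and in 156 of the 936, the 4 rats of lowest Ogn all lay below the other 5. The range across rats ran from 0.12 to 1.88 log2 units, with a median of 0.70, and the slope on Ogn from 0.046 to 0.86, with a median of 0.29. Of the 115 variable probe sets with 1 symbol that ranged over more than 1 log2 unit, 32 (27.8%) are among those described here, which make up 14.1% of the 936.

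**Figure D1:**
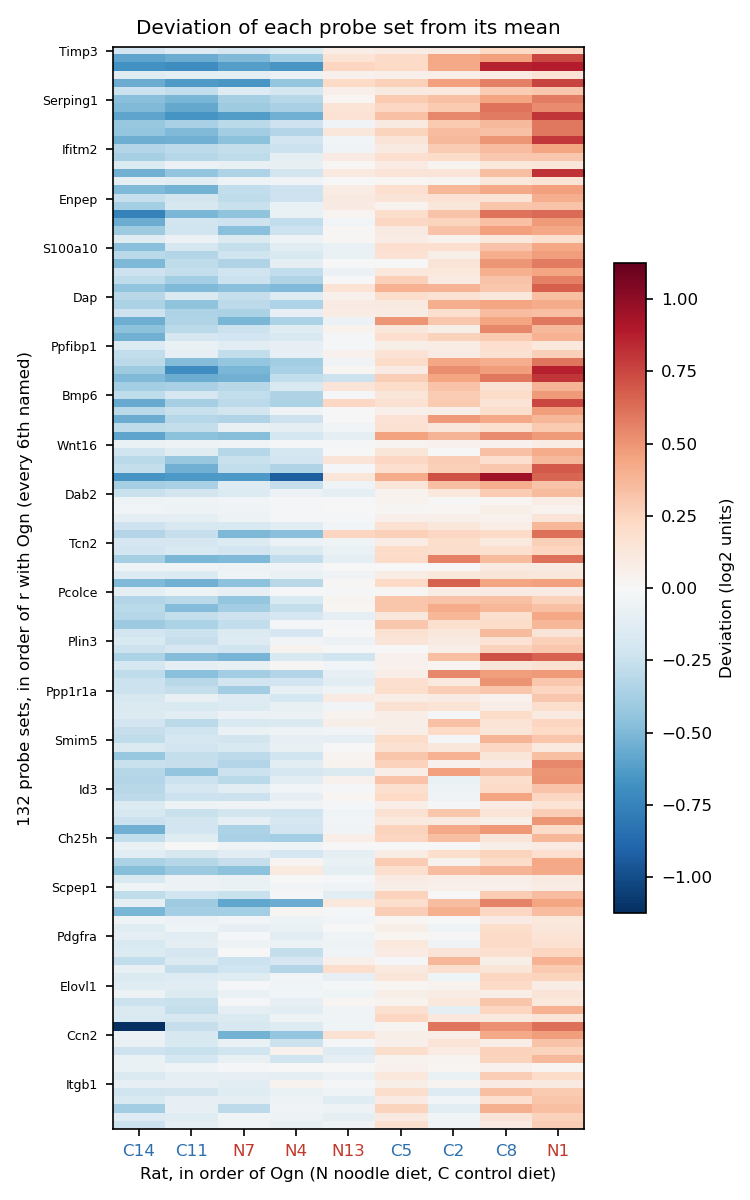
Deviation of each of the 132 probe sets (rows, ordered by r with Ogn) from its own mean in log2 units, in the 9 rats (columns, ordered by Ogn; N noodle diet, C control diet). The 4 columns at the left (control rats 14 and 11, noodle rats 7 and 4) are blue in nearly all rows, with 7 probe sets above their mean in noodle rat 4, and those of control rat 8 and noodle rat 1 at the right lie above the mean in all 132.

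By ranks, Spearman's rho with Ogn ran from 0.717 to 1, and 114 of 132 probe sets reached 0.85. After each diet's mean was removed, r lay between 0.853 and 0.994 for the 132 probe sets, on the same 9 rats that chose them and with nearly equal Ogn means on the diets. Over the 4 noodle rats alone 123 reached 0.85, and over the 5 control rats alone 122 did. These are subsets of the rats that chose the members, so the counts are no replication. For all variable probe sets with 1 symbol, the median r was 0.713 in the noodle rats and 0.511 in the control rats. Over all 9 rats it was 0.380. Without control rats 14 and 11, the rats farthest from Ogn's median, r ran from 0.762 to 0.989 and 104 probe sets still reached 0.85. The lowest r on leaving out a single rat was reached without noodle rat 1 for 89 probe sets and without control rat 14 for 29, and 107 and 116 stayed at the limit there. The members just inside the limit were Cnn3 (r 0.85), Clic4 (0.851) and Gsn (0.852), and just outside it lay Pdpn, Gfap and Tmbim1 (each 0.849).

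The promoters of Ogn, of its neighbour Omd and of a pair of genes that make and destroy retinoic acid are shown, since these genes carry the matrix and retinoid results described next. The windows come from RefSeq on build GRCr8 and run 5′ to 3′ along the gene's strand, mostly upstream of the annotated start and a short stretch past it. Capitals mark matches to the motifs searched: TATAAA in Ogn, AGGTCA in Omd, GGCGCC and TGACNNNGC in Aldh1a2, and TGACTCA with TGACNNNGC in Cyp26b1. They lie at chr17:15258946-15259245 (minus strand), chr17:15274821-15275120 (minus), chr8:80758391-80758690 (plus) and chr4:118616127-118616426 (minus).
Ogn: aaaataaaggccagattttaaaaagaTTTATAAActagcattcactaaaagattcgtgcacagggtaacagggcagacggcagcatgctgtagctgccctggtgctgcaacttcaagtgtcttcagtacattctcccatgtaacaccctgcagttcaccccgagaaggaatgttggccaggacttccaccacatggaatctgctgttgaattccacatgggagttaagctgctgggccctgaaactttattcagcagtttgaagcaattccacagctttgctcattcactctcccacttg
Omd: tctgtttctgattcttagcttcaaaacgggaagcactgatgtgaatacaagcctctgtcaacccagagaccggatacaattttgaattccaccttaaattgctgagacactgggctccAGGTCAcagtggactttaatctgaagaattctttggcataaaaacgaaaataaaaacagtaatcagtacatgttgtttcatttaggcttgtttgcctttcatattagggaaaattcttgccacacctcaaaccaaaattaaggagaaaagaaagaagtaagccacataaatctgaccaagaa
Aldh1a2: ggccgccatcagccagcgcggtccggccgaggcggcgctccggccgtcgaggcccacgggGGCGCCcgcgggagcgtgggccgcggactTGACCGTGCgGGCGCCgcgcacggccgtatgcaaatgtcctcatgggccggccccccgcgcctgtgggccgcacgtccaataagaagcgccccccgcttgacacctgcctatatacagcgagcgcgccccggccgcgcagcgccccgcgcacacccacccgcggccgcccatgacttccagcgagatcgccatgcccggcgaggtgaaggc
Cyp26b1: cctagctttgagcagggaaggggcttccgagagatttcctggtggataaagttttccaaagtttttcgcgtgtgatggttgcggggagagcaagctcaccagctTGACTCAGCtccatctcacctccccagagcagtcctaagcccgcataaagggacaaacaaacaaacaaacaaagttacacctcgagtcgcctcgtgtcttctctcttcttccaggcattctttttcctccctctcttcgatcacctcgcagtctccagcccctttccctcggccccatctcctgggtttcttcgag

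AGGTCA is the half-site of retinoid and related nuclear receptors, GGCGCC a GC-rich element bound by SMAD proteins, TGACTCA the AP-1 site and TGACNNNGC the core of the antioxidant response element. On either strand, AGGTCA occurred in 6.73% of 104 windows of 95 of the genes and in 14.2% of all 21842 windows of that length. The direct repeat of AGGTCA with 5 bases between was found in 0% of both. GGCGCC occurred in 16.3% against 14.1%, TGACTCA in 4.81% against 4.12%, TGACNNNGC in 10.6% against 12.5%, CAGCTG, an E-box, in 15.4% against 15.2%, and TATAAA in 9.62% against 13.0%. A window that holds TGACTCAGC counts for both TGACTCA and TGACNNNGC. TGTTTAC, a forkhead site, occurred in 1.92% against 3.37%, GTCTAGAC, a palindromic SMAD element, in 0.962% (Elovl1 alone) against 0.165%, and the CArG box of serum response factor in 0% against 1.61%. The median GC content was 58.2% against 55.0%. These are matches of letters in short windows, given as descriptions.

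Of 25 measured genes of retinoid metabolism and signalling, 10 were variable and 5 followed Ogn: a synthetic enzyme, a degrading enzyme, a carrier in plasma, a carrier within cells and a secreted responder. This list and those below were chosen with earlier results of these data known, so their counts are descriptions. Of all 936 variable probe sets with 1 symbol, 14.1% are members. Aldh1a2, the enzyme that makes retinoic acid from retinaldehyde and whose GC-rich promoter is printed above, stood at 7.75, 6.55, 6.33 and 7.21 on the noodle diet and 7.44, 7.25, 7.55, 6.35 and 6.42 on the control diet (r 0.983, range 1.41). Its highest and lowest rats differed 2.66-fold on the deposited scale, noodle rat 1 and control rat 8 were highest, and the diets overlapped. Crabp2, which carries retinoic acid to its nuclear receptor, stood at 7.47, 6.71, 6.76 and 7.14 on the noodle diet and 7.47, 7.15, 7.50, 6.61 and 6.70 on the control diet (r 0.956, range 0.89). Cyp26b1, which degrades retinoic acid, stood at 7.31, 6.21, 6.27 and 6.80 on the noodle diet and 6.86, 6.73, 6.71, 6.19 and 5.99 on the control diet (r 0.945, range 1.32). Crabp2 was highest in control rat 8 and Cyp26b1 in noodle rat 1, and in both the 4 rats of low Ogn lay below the other 5. Rbp4, the retinol carrier of plasma, stood at 8.19, 7.03, 7.05 and 7.68 on the noodle diet and 7.90, 7.91, 7.82, 7.02 and 7.08 on the control diet (r 0.959, range 1.17). Rarres2 encodes chemerin, a chemoattractant protein, and stood at 8.35, 7.65, 7.60 and 7.96 on the noodle diet and 8.25, 8.08, 8.31, 7.35 and 7.38 on the control diet (r 0.970, range 0.99). Rarres2 is also a marker of ependymal cells and tanycytes, whose other variable markers were Dynlrb2 (r -0.283) and Tmem212 (r -0.164). For listed genes outside the 124, the highest r of their variable probe sets is given. The variable retinoid genes that did not reach the limit were Ttr, the thyroxine and retinol-binding protein carrier of choroid plexus (r 0.782), Rarres1 (0.632), Rdh12 (0.446), Aldh1a1 (0.332) and Stra6, the receptor that takes up retinol (0.18). The diet differences of the 5 genes, noodle minus control, were -0.045 (SE 0.39) for Aldh1a2, -0.063 (SE 0.25) for Crabp2, 0.15 (SE 0.28) for Cyp26b1, -0.059 (SE 0.32) for Rbp4 and 0.018 (SE 0.27) for Rarres2. Each is smaller than its standard error, as are those of all 27 genes given with values in every rat.

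**Figure D2:**
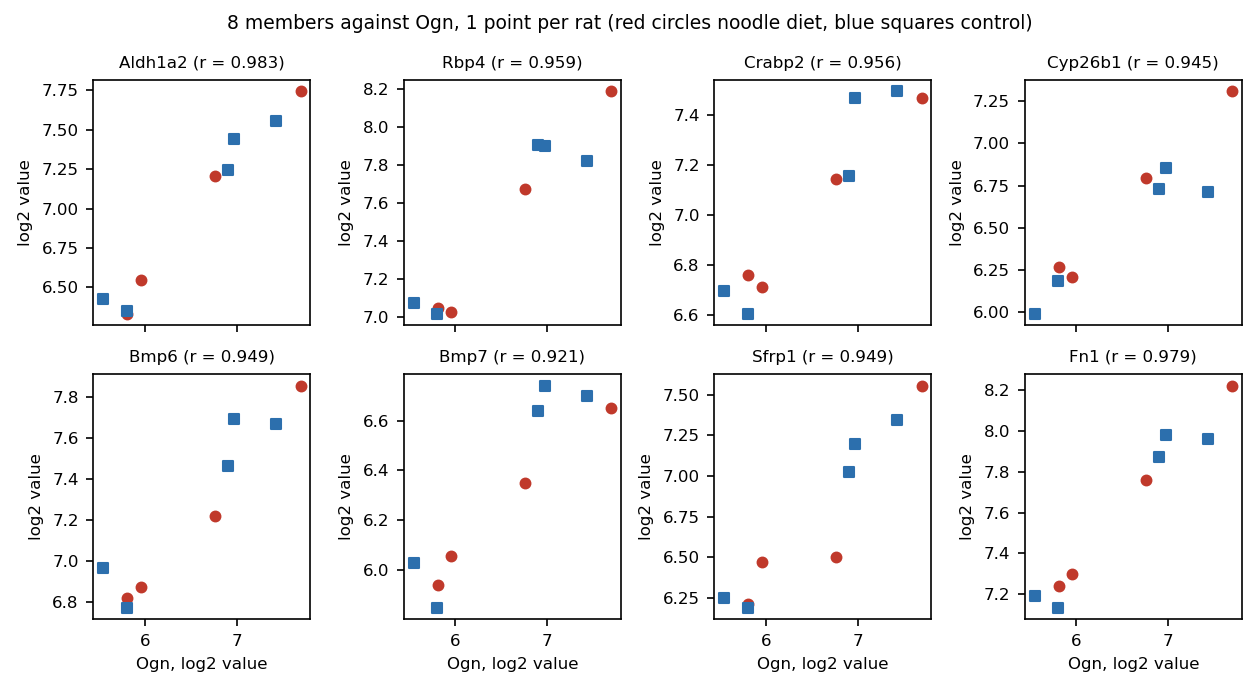
Log2 values of 8 of the genes (vertical axes) against Ogn (horizontal axis), 1 point per rat, with noodle-diet rats as red circles and control rats as blue squares. Points of both diets rise together with Ogn in each panel, and control rat 2 (Ogn 6.97) is the highest point for Bmp7.

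Of 42 measured genes of the bone morphogenetic protein (BMP) and transforming growth factor-beta pathways, 9 were variable and 7 followed Ogn. Among the ligands, Bmp6 stood at 7.85, 6.87, 6.82 and 7.22 on the noodle diet and 7.69, 7.46, 7.67, 6.77 and 6.96 on the control diet (r 0.949, range 1.08). Bmp7 stood at 6.65, 6.06, 5.94 and 6.35 on the noodle diet and 6.74, 6.64, 6.70, 5.85 and 6.03 on the control diet (r 0.921, range 0.90). Bmp6 was highest in noodle rat 1, while Bmp7 was highest in control rat 2, and both were low in the rats of low Ogn. Bmp4 (r 0.919, range 0.60) is the third ligand. Of the modulators, Fstl1, a secreted follistatin-like protein, stood at 8.11, 7.89, 7.85 and 8.01 on the noodle diet and 8.03, 8.01, 8.04, 7.85 and 7.82 on the control diet (r 0.986, range 0.29). A further variable probe set of Fstl1 had a wider range (0.50) and followed Ogn less closely (r 0.588), so the close r of Fstl1 rests on 1 probe set. Nbl1, a secreted antagonist of BMPs, stood at 7.81, 7.41, 7.44 and 7.48 on the noodle diet and 7.65, 7.68, 7.70, 7.25 and 7.23 on the control diet (r 0.945, range 0.58). The rule chose the ligands and the antagonist for a like order of the rats. Of the targets, Tgfbi, a matrix protein induced by transforming growth factor-beta, stood at 7.46, 7.26, 7.28 and 7.30 on the noodle diet and 7.46, 7.42, 7.47, 7.18 and 7.19 on the control diet (r 0.925, range 0.28). Id3 (r 0.903, range 0.63), an inhibitor of helix-loop-helix factors induced by BMPs, met the limit, and its relatives Id1 (r 0.743) and Id2 (r 0.584) did not. No receptor or SMAD of the list was variable. The diet differences were -0.12 (SE 0.28) for Bmp6, -0.14 (SE 0.24) for Bmp7, 0.015 (SE 0.071) for Fstl1, 0.035 (SE 0.14) for Nbl1 and -0.018 (SE 0.079) for Tgfbi.

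Of 21 measured Wnt pathway genes, 4 were variable and 1 followed Ogn. Sfrp1, a secreted antagonist that binds Wnt ligands, stood at 7.56, 6.47, 6.21 and 6.50 on the noodle diet and 7.20, 7.02, 7.34, 6.19 and 6.25 on the control diet (r 0.949, range 1.37), with noodle rat 1 highest and control rat 11 lowest. The secreted antagonists Dkk3 (r 0.569), Frzb (0.0702) and Sfrp2 (-0.214) did not follow Ogn at the limit. Outside the list, Wnt16 (r 0.943, range 0.16), a Wnt ligand, met the rule. Sfrp1 differed between diets by -0.11 (SE 0.36).

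Of 67 measured matrix genes other than collagens and the proteoglycans left out by name, 18 were variable and 12 followed Ogn. Timp3, an inhibitor of metalloproteinases that binds to the matrix, had the highest r of all 132 probe sets, 0.991 (range 0.44), and stood at 9.46, 9.08, 9.05 and 9.31 on the noodle diet and 9.33, 9.32, 9.46, 9.09 and 9.02 on the control diet. A further variable probe set of Timp3 (range 0.42) had r 0.820 and fell short of the limit, so the highest r rests on 1 probe set. Omd, a keratan sulfate proteoglycan of the same family as Ogn, stood at 6.80, 5.91, 5.87 and 6.42 on the noodle diet and 6.56, 6.50, 6.88, 5.69 and 5.78 on the control diet (r 0.981, range 1.19). Omd is the gene next to Ogn on chromosome 17, and the windows of both promoters are printed above. Fn1, fibronectin, stood at 8.22, 7.30, 7.24 and 7.76 on the noodle diet and 7.98, 7.88, 7.96, 7.13 and 7.19 on the control diet (r 0.979, range 1.09). Efemp1, the elastic fibre protein fibulin-3, stood at 8.04, 7.03, 6.78 and 7.22 on the noodle diet and 7.61, 7.39, 7.74, 6.71 and 6.70 on the control diet (r 0.978, range 1.34). In the values printed for these 4 genes the 4 rats of low Ogn lay below the other 5, and each diet had rats at both ends. Mfap4 and Mfap5 encode proteins that associate with microfibrils. Mfap4 stood at 6.72, 6.33, 6.15 and 6.48 on the noodle diet and 6.52, 6.44, 6.71, 6.22 and 6.01 on the control diet (r 0.968, range 0.70). Mfap5 stood at 7.12, 6.28, 5.93 and 6.23 on the noodle diet and 6.79, 6.50, 7.17, 5.96 and 6.10 on the control diet (r 0.916, range 1.24). The other matrix members were Fbln1 (r 0.929, range 0.45), the matrix glycoprotein fibulin-1, Pcolce (r 0.925, range 0.19), which enhances the trimming of procollagen, Timp1 (r 0.905, range 0.87), a soluble metalloproteinase inhibitor, Vtn (r 0.866, range 0.56), vitronectin, Ecm2 (r 0.859, range 0.59), a leucine-rich matrix protein encoded close to Omd, and Ccn2 (r 0.861, range 0.99), connective tissue growth factor. The variable matrix genes short of the limit were the collagen chaperone Serpinh1 (r 0.819), Spp1, osteopontin (0.813), Mgp, the matrix Gla protein (0.79), the laminin chain Lamb2 (0.676), the membrane metalloproteinase Mmp14 (0.569) and the proteoglycan Vcan (0.338). Diet differences were -0.018 (SE 0.12) for Timp3, -0.034 (SE 0.31) for Omd, 0.0027 (SE 0.28) for Fn1, 0.037 (SE 0.33) for Efemp1, 0.039 (SE 0.16) for Mfap4 and -0.12 (SE 0.32) for Mfap5.

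Further genes of the matrix and its receptors stood outside that list. Coch, cochlin, a secreted matrix protein best known from the inner ear, stood at 8.39, 6.86, 6.90 and 7.75 on the noodle diet and 7.94, 7.74, 8.37, 6.82 and 6.83 on the control diet (r 0.987, range 1.58). Cpxm2, a secreted protein of the carboxypeptidase family, stood at 7.14, 6.42, 6.05 and 6.54 on the noodle diet and 6.82, 6.70, 7.11, 5.99 and 5.74 on the control diet (r 0.967, range 1.40). In both, noodle rat 1 was highest, and they spanned 1.58 and 1.40 log2 units. The others were Itgbl1 (r 0.962, range 0.80), an integrin beta-like secreted protein, Abi3bp (r 0.956, range 1.14) and Aebp1 (r 0.944, range 1.12), matrix proteins of connective tissue, Sned1 (r 0.895, range 1.03), a secreted matrix protein, Htra3 (r 0.890, range 0.91), a secreted serine protease, Islr (r 0.938, range 0.78), a leucine-rich secreted protein of fibroblasts, Fgl2 (r 0.974, range 0.67), a fibrinogen-like protein, Itgb1 (r 0.855, range 0.23), the integrin beta-1 chain, and Ddr2 (r 0.871, range 0.67), a collagen-binding receptor kinase.

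Of 31 measured markers of vascular smooth muscle, pericytes and endothelium, 4 were variable and 1 followed Ogn. Vtn, counted there as a pericyte marker and above as matrix, stood at 7.41, 7.19, 7.28 and 7.31 on the noodle diet and 7.41, 7.33, 7.60, 7.04 and 7.05 on the control diet (r 0.866, range 0.56), with control rat 8 highest. Its diet difference was 0.016 (SE 0.12). The smooth muscle genes Tagln and Mylk had r 0.782 and -0.318, and the pericyte gene Rgs5, a regulator of G-protein signalling, had r -0.649. Of 11 measured endothelial markers, 0 were variable. Rgs5 ranged over only 0.070 log2 units.

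Genes of coagulation, complement and vessel growth outside that list were also among the 124. Thbd, thrombomodulin, the thrombin receptor of cell surfaces, stood at 7.54, 6.29, 6.14 and 6.68 on the noodle diet and 7.18, 6.75, 7.13, 5.96 and 6.26 on the control diet (r 0.949, range 1.57). Noodle rat 1 was highest in this probe set and control rat 2 in the other Thbd probe set of the group. The diet difference of Thbd was 0.0077 (SE 0.37) in the first probe set and -0.15 (SE 0.27) in the second. The others were F3 (r 0.911, range 0.51), tissue factor, which starts coagulation, Angpt2 (r 0.891, range 0.44), a ligand of the Tie2 receptor, Serping1 (r 0.982, range 1.09), the inhibitor of complement C1, Serpinf1 (r 0.888, range 0.92), an anti-angiogenic secreted serpin, Enpep (r 0.970, range 0.70), an aminopeptidase that cleaves angiotensin, and Gng11 (r 0.907, range 0.49), a G-protein gamma subunit.

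Junction and surface genes included markers of the arachnoid barrier. Gjb2, connexin 26, a gap junction protein, stood at 8.43, 7.31, 7.19 and 7.84 on the noodle diet and 8.12, 7.90, 8.15, 7.13 and 7.09 on the control diet (r 0.989, range 1.34). Mpzl2, a homophilic adhesion protein also listed among Schwann cell markers, stood at 7.28, 6.26, 6.13 and 6.58 on the noodle diet and 6.62, 6.62, 6.81, 6.03 and 5.94 on the control diet (r 0.971, range 1.35). Both were highest in noodle rat 1 and lowest in control rat 14, and the diets overlapped. The gene next to Gjb2, Gjb6 (r 0.908, range 0.63), encodes connexin 30, which astrocytes make as well. Cdh1 (r 0.932, range 1.12) is E-cadherin of barrier junctions, Tspan8 (r 0.942, range 0.79) a tetraspanin, Emp3 (r 0.90, range 0.56) a membrane glycoprotein and Fxyd5 (r 0.904, range 0.94) a regulator of the sodium pump. Of 10 measured arachnoid barrier markers 6 were variable, Cdh1 and Crabp2 are members, Ptgds and a pair of solute carriers met the limit but were left out by name, and Cldn11, which oligodendrocytes make too, had r 0.84.

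The gene of widest range was Nupr1, a small nuclear protein induced by stress, which stood at 7.84, 6.27, 6.55 and 7.33 on the noodle diet and 7.91, 7.61, 8.15, 6.55 and 6.53 on the control diet (r 0.938, range 1.88). Control rat 8 was highest and noodle rat 4 lowest, and its highest and lowest rats differed 3.68-fold on the deposited scale. Galm, galactose mutarotase of sugar metabolism, stood at 7.79, 7.03, 6.99 and 7.13 on the noodle diet and 7.78, 7.21, 7.69, 6.92 and 6.05 on the control diet (r 0.863, range 1.74), with noodle rat 1 and control rats 2 and 8 above the others and control rat 14 far below them. Fam180a, whose function is left unnamed, stood at 7.82, 6.47, 6.38 and 7.18 on the noodle diet and 7.56, 7.35, 7.60, 6.35 and 6.43 on the control diet (r 0.980, range 1.47). Gstm2, a glutathione transferase that conjugates electrophiles, stood at 7.04, 6.01, 6.07 and 6.33 on the noodle diet and 6.62, 6.54, 6.65, 5.81 and 6.08 on the control diet (r 0.940, range 1.24). In Nupr1, Fam180a and Gstm2 the 4 rats of low Ogn lay below the other 5. The diet differences were -0.35 (SE 0.47) for Nupr1, 0.11 (SE 0.37) for Galm, -0.093 (SE 0.41) for Fam180a, 0.025 (SE 0.27) for Gstm2, -0.065 (SE 0.45) for Coch, 0.063 (SE 0.34) for Cpxm2, 0.014 (SE 0.35) for Gjb2 and 0.16 (SE 0.29) for Mpzl2.

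The other members of metabolism and redox control were Elovl5 (r 0.970, range 0.27) and Elovl1 (r 0.868, range 0.35), which lengthen fatty acids, Sult1a1 (r 0.888, range 1.14), a phenol sulfotransferase, Hsd17b11 (r 0.855, range 0.12), a lipid droplet dehydrogenase, Cp (r 0.959, range 0.71), the copper oxidase ceruloplasmin, and Tcn2 (r 0.929, range 0.46), the carrier of vitamin B12. To these come Nt5e (r 0.935, range 0.12), which makes adenosine from AMP, Plaat3 (r 0.876, range 0.39), a phospholipase, Prtfdc1 (r 0.878, range 0.33), a relative of a purine salvage enzyme, Selenbp1 (r 0.911, range 0.36), a selenium-binding protein, Txnip (r 0.943, range 0.74), an inhibitor of thioredoxin, and Nfe2l2 (r 0.936, range 0.14), the factor that acts on antioxidant response elements.

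Proteins that bind calcium or membranes were, by hand grouping, S100a10 (r 0.962, range 0.91), S100a11 (r 0.964, range 0.34), S100a6 (r 0.960, range 1.09), the annexins Anxa2 (r 0.980, range 1.01), Anxa4 (r 0.891, range 0.79) and Anxa5 (r 0.933, range 0.61), and, beside them, the galectin Lgals1 (r 0.982, range 0.58). Of the cytoskeleton and its regulators, the members were Vim (r 0.965, range 1.04), vimentin of mesenchymal and glial filaments, Tagln2 (r 0.926, range 0.16), Cnn3 (r 0.85, range 0.51) and Gsn (r 0.852, range 0.79), which bind actin, Tnnt2 (r 0.925, range 1.20), a troponin, Arpc1b (r 0.906, range 0.45), a subunit of the complex that nucleates actin, Phldb2 (r 0.934, range 0.25) and Ppfibp1 (r 0.952, range 0.34), found at the cell cortex, Net1 (r 0.954, range 0.92) and Dock5 (r 0.902, range 0.73), exchange factors of small GTPases, and Clic4 (r 0.851, range 0.40), a chloride channel protein.

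The immune members were spread over several functions. They held Lyz2 (r 0.920, range 0.78), lysozyme, Cybb (r 0.860, range 0.56) and Cyba (r 0.874, range 0.51), the subunits of the phagocyte oxidase, Cd48 (r 0.853, range 0.48), a leukocyte adhesion ligand, Psmb9 (r 0.866, range 0.30), a subunit of the immunoproteasome, and the interferon-induced Ifitm2 (r 0.977, range 0.77), Ifitm3 (r 0.945, range 0.77) and Slfn5 (r 0.915, range 0.36). Cxcl12 (r 0.956, range 0.70) and Cxcl16 (r 0.864, range 0.41) are chemokines, Ch25h (r 0.894, range 0.76) makes an oxysterol that attracts leukocytes, Scara3 (r 0.906, range 0.82) is a scavenger receptor, Dab2 (r 0.937, range 0.60) an endocytic adaptor, Serpinb1a (r 0.860, range 0.50) an inhibitor of neutrophil proteases and Plac8 (r 0.945, range 1.03) a small cysteine-rich protein. Of 7 measured border macrophage markers 0 were variable, and the 5 variable of 9 microglia markers had a score that followed Ogn at r 0.574.

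Among signalling and nuclear genes, Pdgfra (r 0.876, range 0.34) is a growth factor receptor of fibroblasts and oligodendrocyte precursors, Sgk3 (r 0.864, range 0.66) a kinase, Ndrg1 (r 0.853, range 0.56) a stress-responsive protein of myelinating and epithelial cells, Ppp1r1a (r 0.921, range 0.77) an inhibitor of protein phosphatase 1 and Pdzrn3 (r 0.890, range 0.27) a ubiquitin ligase. Bnc2 (r 0.928, range 1.13) is a zinc-finger factor of mesenchyme, Cdkn1c (r 0.964, range 0.93) an inhibitor of cyclin-dependent kinases, Hopx (r 0.888, range 0.63) a homeodomain-only protein and Spag5 (r 0.909, range 0.37) a spindle protein. Of the genes of vesicles and membranes, Lamp2 (r 0.90, range 0.31) is a protein of lysosomal membranes, Snx14 (r 0.871, range 0.61) a sorting nexin, Vamp8 (r 0.950, range 0.55) a protein of vesicle fusion and Plin3 (r 0.918, range 0.53) a coat protein of lipid droplets. Scpep1 (r 0.889, range 0.16) is a serine carboxypeptidase, Ldlrad3 (r 0.868, range 0.41) a receptor-like membrane protein, Enpp4 (r 0.855, range 0.44) an ectophosphodiesterase and Gramd2b (r 0.893, range 0.17) a GRAM domain protein. The rest were Clu (r 0.972, range 0.29), the secreted chaperone clusterin, Fkbp9 (r 0.948, range 0.76), a prolyl isomerase, Rps24 (r 0.884, range 0.18), a ribosomal protein, and Fibin (r 0.955, range 1.01), Smim35 (r 0.912, range 0.82), Smim5 (r 0.906, range 0.67) and Dap (r 0.958, range 0.65).

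The 132 probe sets differed in how closely they followed other cell type markers. With Ptgds, an enzyme of leptomeningeal cells and choroid plexus, their median r was 0.902, and 29 were closer to Ptgds than to Ogn. With Gfap, the filament protein of astrocytes, which itself followed Ogn at 0.849, the median was 0.837, and 14 were closer to it, among them Hopx, Aebp1, Lyz2 and Selenbp1. With Dcn the median was 0.714, from 0.508 for Sned1 to 0.898 for Tagln2, and Cd48, Ndrg1 and Sgk3 were closer to it. With Mog, a myelin protein, the median was 0.589, and Enpp4, Gsn, Ndrg1 and Prtfdc1 were closer to it. Marker scores moved with Ogn at r 0.803 for 5 variable astrocyte markers, 0.680 for 7 of oligodendrocytes, 0.825 for 3 of choroid plexus and -0.769 for 3 of neurons. The single markers were less uniform. By each gene's highest r, astrocyte markers ran from 0.228 (S100b) to 0.849 (Gfap) and oligodendrocyte markers from 0.519 to 0.838. Choroid plexus markers ran from -0.593 (Prlr) to 0.782 (Ttr), and neuron markers from -0.682 to -0.424. Score ranges on the noodle and control diets were -0.10 to 0.19 and -0.14 to 0.17 for astrocytes, and -0.084 to 0.14 and -0.21 to 0.38 for oligodendrocytes. They were -0.33 to 0.33 and -0.34 to 0.29 for choroid plexus, and -0.026 to 0.064 and -0.10 to 0.091 for neurons. All of these correlations run over the same 9 arrays, and the part of these cell types in the pattern was not tested.

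**Figure D3:**
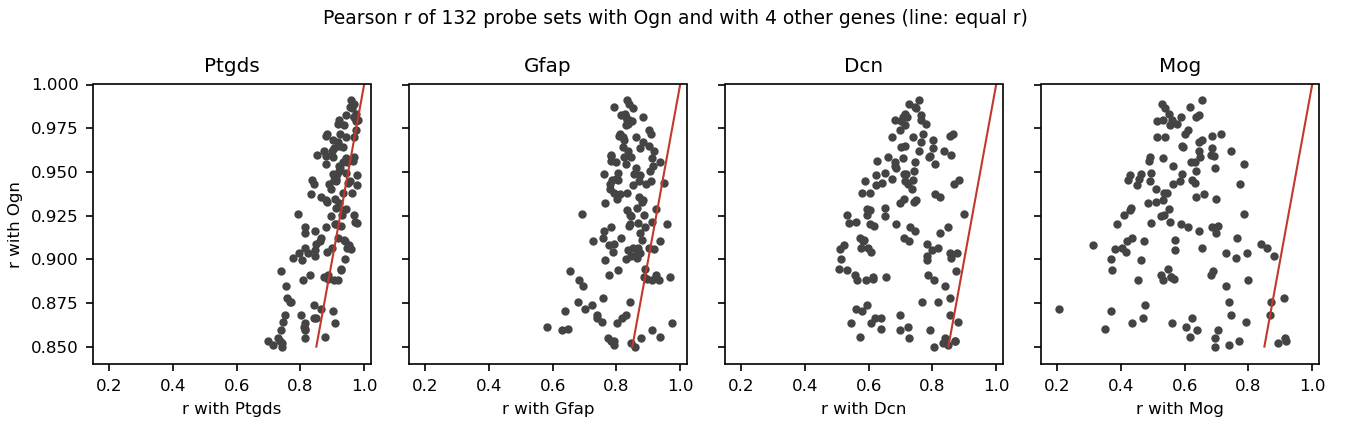
Pearson r with Ogn (vertical axis) of the 132 probe sets against their r with Ptgds, Gfap, Dcn and Mog (horizontal axes), each over 9 rats, with a line at equal r. Most points lie left of the line in each panel, with 29, 14, 3 and 4 probe sets closer to the other gene.

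Most deposited values differed very little between rats, on a scale that may have been altered. Of 31042 probe sets, 29759 (95.9%) ranged over less than 0.01 log2 units (called compressed), array medians lay between 6.777 and 6.785, and arrays correlated at 0.997 to 0.999. The rule did not use these compressed probe sets, but they come from the same arrays. Of them, 37 belong to genes chosen on those arrays, so the compressed probe sets give no independent check. They range too little to be read as changes of the transcript, so their r is given only as a description. Of 37 compressed probe sets that belong to 30 of the genes, the median r with Ogn was 0.623, 25 (67.6%) reached 0.5 and 7 (18.9%) reached 0.85. Over the 19808 compressed probe sets of other named genes, the median was -0.053, and 10.4% and 0.823% reached those values. Of 8 further probe sets that were variable, Cp (r 0.826), Timp3 (0.820), Ndrg1 (0.808) and Ddr2 (0.745) were closest to Ogn, and Cxcl12 (-0.235) was the only one below 0.5. The Cxcl12 probe sets thus disagreed, and the level of Cxcl12 rests on the probe set that met the limit. Some compressed probe sets also had a negative r. They belong to Tnnt2 (-0.676), Bmp6 (-0.590 and -0.178), Htra3 (-0.423 and -0.256), Cxcl12 (-0.262) and Cyba (-0.099).

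**Figure D4:**
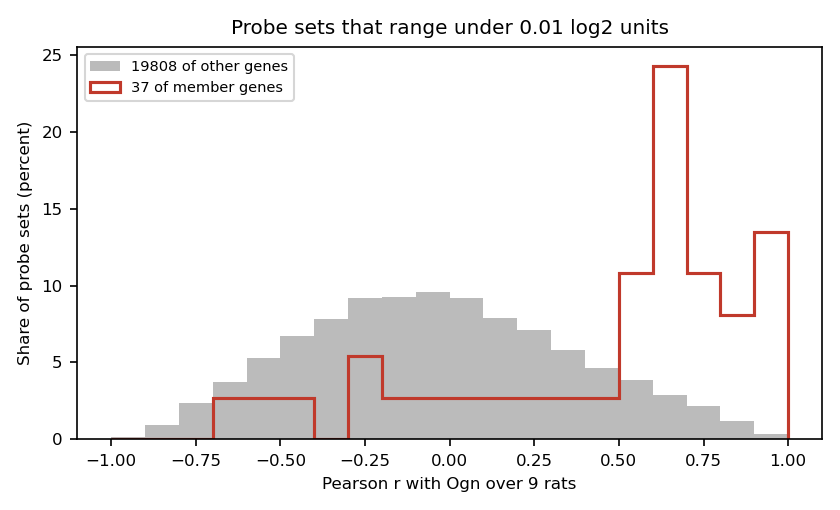
Share of probe sets (percent, vertical axis) by Pearson r with Ogn (horizontal axis) among probe sets that range under 0.01 log2 units, for 37 probe sets of the genes described here (red outline) and 19808 of other named genes (grey). The red outline is shifted to the right, with medians of 0.623 and -0.053. The genes in red were chosen on these same arrays, so the shift is a description.

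The study's comparison is that of the diets, to ask whether seasonings alter hypothalamic transcripts. None of the 132 probe sets differed between diets in limma's test with Benjamini-Hochberg adjustment over 31042 probe sets. The count called was 0, as over all probe sets (0%), and every adjusted p was at least 0.99999. In the diet comparison the variable probe sets number 1223, since those with no symbol or with several are included. At an unadjusted p under 0.05 the count was also 0, against 2.29% of all and 0.899% of variable probe sets. The groups did not overlap for 0 members, against 0.567% of all and 0.0818% of variable probe sets. On the noodle diet 48 probe sets were higher and 84 (63.6%) lower, and 48.1% of the 1223 variable probe sets were lower. The median difference was -0.0095 log2 units for the 132 and 0.0035 for the variable probe sets. Differences ran from -0.35 for Nupr1 to 0.16 for Mpzl2, and all 132 were smaller than the SD of either diet. The smallest unadjusted p was 0.377, for Sult1a1, which differed by -0.26 (SE 0.28). Since the members share 1 pattern over the rats, their differences are not independent of each other, and each p-value reflects only how these 9 rats, each on its own array, varied.

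The precision of these differences was limited by the number of rats and by the spread along Ogn. The median standard error was 0.17 log2 units, and the 95% interval lay within ±0.5 for 81 of 132 probe sets. For Nupr1 it ran from -1.45 to 0.75, for Coch from -1.12 to 0.99, for Aldh1a2 from -0.94 to 0.85 and for Timp3 from -0.29 to 0.26. With Ogn added as a covariate the median standard error fell to 0.061, and the median difference was -0.016. At equal Ogn 0 were called (0% of all), and the smallest adjusted p by limma was 0.99992. An unadjusted p under 0.05 was reached by 7 of the 132, against 2.63% of all and 2.45% of variable probe sets. The differences at equal Ogn were -0.056 (SE 0.016, unadjusted p = 0.010) for Ppfibp1, -0.37 (SE 0.11, unadjusted p = 0.013) for Nupr1, 0.15 (SE 0.046, unadjusted p = 0.015) for Mpzl2 and -0.27 (SE 0.10, unadjusted p = 0.029) for Sult1a1. They were -0.13 (SE 0.047, unadjusted p = 0.031) for Cdkn1c, -0.099 (SE 0.039, unadjusted p = 0.039) for Fbln1 and -0.11 (SE 0.043, unadjusted p = 0.045) for Angpt2. Because Ogn chose the members, their spread around it is small by choice, and the fall in the standard error largely follows from that. The unadjusted p-values at equal Ogn are therefore not read as tests of diet. This fit is given as a description of what remained beside the shared pattern. In each of the retinoid, BMP, Wnt, matrix and vascular lists, limma called 0 genes higher and 0 lower. At an unadjusted p under 0.05 the retinoid list held 1 of 35 probe sets (Rarg), the BMP list 1 of 72 (Acvrl1), the Wnt list 2 of 32 (Frzb and Dkk3), the matrix list 1 of 96 (Adamts5) and the vascular list 3 of 43 (Cspg4, Acta2 and Synpo2). Of these only Frzb was measured there by a variable probe set, with a difference of 0.23 (SE 0.097), while the variable probe set of Dkk3 had an unadjusted p of 0.989. The others ranged too little for their differences to be read as changes of the transcript, and none of these genes is among the 124.

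**Figure D5:**
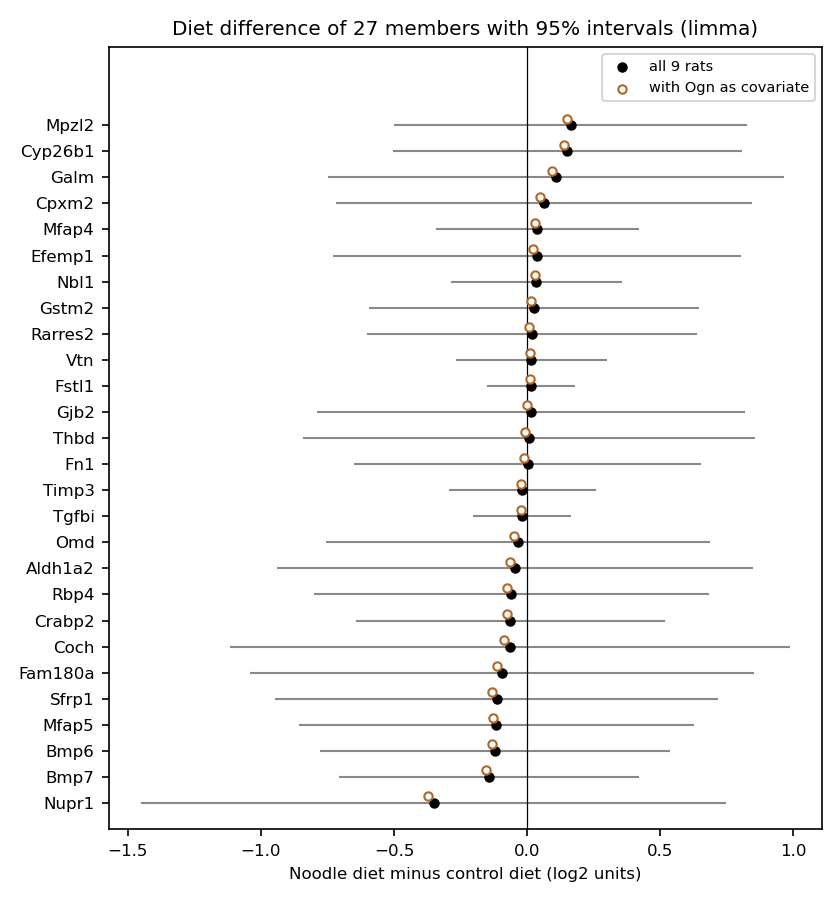
Difference between diets (noodle minus control, log2 units, horizontal axis) for 27 genes with values in every rat, with limma's estimate (black points), its 95% interval (grey lines) and the estimate with Ogn as a covariate (open points). All 27 intervals include 0.

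Some of the genes lie next to each other in the genome, by their order among protein-coding genes in RefSeq's GRCr8 annotation. Among the 123 of the 124 genes found there, with Ogn added, 5 pairs had 0 genes between them. On chromosome 17 the pair was Ogn and Omd, and on chromosome 15 Gjb2 and Gjb6 and also Scara3 and Clu. The others were S100a10 and S100a11 on chromosome 2, and Nt5e and Snx14 on chromosome 8. Omd and Ecm2 are separated by Aspn and a ribosomal gene copy, Ifitm2 and Ifitm3 by Ifitm1, Cnn3 and F3 by 1 gene, and Nupr1 and Sult1a1 by 2 genes. How many such pairs as many genes would give by chance was not tested. Near-identical copies such as Ifitm2 and Ifitm3 may share probes, so their values are uncertain as separate measurements.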

How the data were processed

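The authors deposited 1 table of log2 values from an Affymetrix rat array, 1 column per rat. Their span of 5.13 to 13.7, and no label, is the basis for calling them log2, and the sources used here do not give the summary or normalization method. Biotin-labelled cRNA was made from 100 ng of total RNA, per the labels' protocols. Values were used as deposited, without the 57 manufacturer controls. Genes were named from the platform's annotation. Probe sets with several symbols were left out of the choice of genes, while the diet fit used all 31042 probe sets.

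Pearson r with Ogn chose the genes. The members and gene lists were chosen with earlier results of these data known. Every member is named, and values in every rat are given for up to 5 members of each list, by highest r, and for the 10 others of widest range. A list score is the mean deviation of its variable genes from their means. Diets were compared with limma 3.58.1 in R 4.3.3 (lmFit and trended eBayes, 2-sided), with p-values adjusted by Benjamini-Hochberg over 31042 probe sets and a threshold of 0.05, after the script was tested on simulated data. Differences are noodle minus control in log2 units with standard errors. Alternatives were other normalizations, filters, variance models, array weights, Ogn as a covariate, other limits and anchors, and leaving out each rat. The number of arrays limits the precision.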

Additional observations from a re-analysis of the deposited data

Results flagged for a closer look

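The 27 genes with values in every rat, and the mean deviation of the 132 probe sets, were checked in both diets (56 groups). In 1 group a rat lay far from the others. Galm stood at 7.79 in noodle rat 1, and the other noodle rats lay between 6.99 and 7.13. Chance flags about 1 in 20 such groups, or 2.8 of 56.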

How the results depend on the processing

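The count of probe sets that follow Ogn was 132 and ran from 115 to 180 on leaving out each rat in turn. It was 127 after quantile normalization, 125 with a common array median, 144 with diet means removed, 171 at r of 0.80 or more, 94 at 0.90 or more, 132 and 123 with ranges over 0.10 and 0.20, and 140 by Spearman's rho, of which 114 are shared. Without the 2 rats farthest from Ogn's median, an alternative chosen after seeing the data, it was 117, of which 104 are shared. With the mean of Dcn and Lum in place of Ogn it was 50, of which 27 are shared, and the cause was not tested. The count of these probe sets past the diet threshold was 0 under all 10 other settings and all 9 fits that left out a rat. Their median diet difference ran from -0.12 to 0.042 on leaving out a rat. Of 27 genes with values in every rat, 25 changed the sign of their diet difference on leaving out some rat, and Bmp7 and Nupr1 stayed lower on the noodle diet. The lowest and highest difference without a rat is given for the 25. It ran from -0.31 to 0.16 for Aldh1a2, -0.13 to 0.13 for Rarres2, -0.29 to 0.094 for Rbp4, -0.21 to 0.041 for Crabp2 and -0.070 to 0.30 for Cyp26b1. It was -0.034 to 0.053 for Fstl1, -0.34 to 0.0037 for Bmp6, -0.058 to 0.084 for Nbl1, -0.063 to 0.013 for Tgfbi and -0.40 to 0.043 for Sfrp1. For others it was -0.094 to 0.040 for Timp3, -0.22 to 0.12 for Omd, -0.19 to 0.13 for Fn1, -0.22 to 0.20 for Efemp1 and -0.060 to 0.13 for Mfap4. Elsewhere it was -0.046 to 0.095 for Vtn, -0.16 to 0.27 for Galm, -0.37 to 0.14 for Coch, -0.28 to 0.18 for Thbd and -0.38 to 0.10 for Fam180a. The remaining ranges were -0.14 to 0.23 for Cpxm2, -0.076 to 0.31 for Mpzl2, -0.23 to 0.18 for Gjb2, -0.36 to 0.051 for Mfap5 and -0.20 to 0.14 for Gstm2. With array weights the difference turned to -0.0079 for Efemp1, -0.029 for Thbd and -0.012 for Gstm2, and with Ogn as a covariate to -0.010 for Fn1, -0.0088 for Thbd and -0.0020 for Gjb2. With 1 probe set per gene the fit held 118 of the 132 probe sets, and with the filter at the 20th percentile 130. No paired analysis was possible because the diets share no rat numbers. No background signal per probe set is at hand, so how far each lies above background is unknown.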

Other observations

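The score of Cga and Tshb, the variable genes among 8 measured markers of anterior pituitary and pars tuberalis, had r -0.077 with Ogn, and ran from -0.29 to 1.04 log2 units on the noodle diet and from -1.07 to 0.91 on the control diet. Hbb, the beta chain of haemoglobin and the variable gene among 5 measured markers of blood, had r 0.746. Of the 936 variable probe sets with 1 symbol, 5 had an r with Ogn of -0.85 or under.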
